A study of Mus musculus with 64 samples.

Results

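Rosiglitazone (rosi below) was compared with control in inguinal white fat (iWAT, a subcutaneous depot) of B6/129S1 F1 hybrid mice (F1 below) fed a low-fat diet (LFD). The comparison covered every gene of 10 libraries, chosen by their titles, out of the 64 of the series: 5 labelled rosi and 5 labelled control. All 10 held total RNA, shared strain, tissue and diet, and came from 1 sequencing run and lane. The dose, route and length of treatment, the age and sex of the mice and whether each library came from 1 animal were not given in the sources used here, so p-values measure the spread between these samples, which may be technical in part. An F1 hybrid carries 1 allele of each parent strain at most autosomal genes, and the counts did not separate the alleles. For the last comparison below, iWAT of C57BL/6J (B6) and of 129S1/SvlmJ (129) mice on a high-fat diet (HFD) was used, with 4 control and 4 rosi libraries per strain.

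Rosiglitazone is a thiazolidinedione that binds and activates PPAR gamma, the nuclear receptor that drives fat cell differentiation. PPAR gamma acts as a heterodimer with RXR at DNA elements near genes of fatty acid uptake, lipid storage and oxidation, and its ligands can lead subcutaneous white fat to express genes of brown fat, a state called beige or browned. In brown and beige fat cells Ucp1 lets protons back into the mitochondrial matrix without making ATP, so that fuel oxidation gives heat. The series as a whole asked how Ucp1 expression in subcutaneous fat depends on strain.

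Each F1 library held 3099737 to 4808947 counts in genes, against 3099737 to 9551251 over the series, and 15328 to 16878 genes had at least 1 count. Reads outside any gene feature made up 66.8 to 70.6% of those that were assigned, unassigned or ambiguous. Over the series this share was 29.3 to 70.6%, with a median of 38.9%, so the F1 libraries lay at its upper end. The first principal component of log2 CPM (a gene's count scaled to a library total of 1e+06) held 57.4% of the variance and separated the groups, with rosi libraries at 19.4 to 40.3 and control libraries at -46.0 to -18.9. The second, with 15.7%, set control replicate 1 apart, at 44.3 against -20.9 to 11.5 for the other libraries. That library held markers of lymph node B and T cells summing to 1488 CPM, against 27.3 to 57.0 CPM in the other 9. Counts of list members that moved by over 1.5 times without it, and some that moved less, are also given without it. Markers that define fat cells were present in both groups. Adipoq, the hormone adiponectin, was at 1848 to 2874 CPM in control and 1897 to 3157 CPM in rosi libraries, and Plin1, the coat protein of the fat droplet, was at 1319.8 to 2131 and 1618 to 1987 CPM.

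Rosi moved a large share of the transcriptome in F1 iWAT. Of 11859 genes tested, 2216 were higher (18.7% of genes tested) and 2266 were lower (19.1%) at an adjusted p under 0.05, or 37.8% in either direction. A change of at least 2-fold was called for 507 higher genes (4.28%) and 694 lower genes (5.85%). Every rosi library lay above every control library for 1694 genes (14.3%) and below for 1352 (11.4%). Without scaling factors on the library sizes, 1729 were higher and 3065 lower, so that higher genes made up 36.1% of the calls in place of 49.4%, and the median log2 fold change of all genes moved from -0.03 to -0.14. Here and below log2 fold changes are rosi minus control with their SE, levels are CPM, and n = 5 libraries in each group. The counts of list members below are to be read against 18.7% higher and 19.1% lower among all genes tested.

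**Figure D1:**
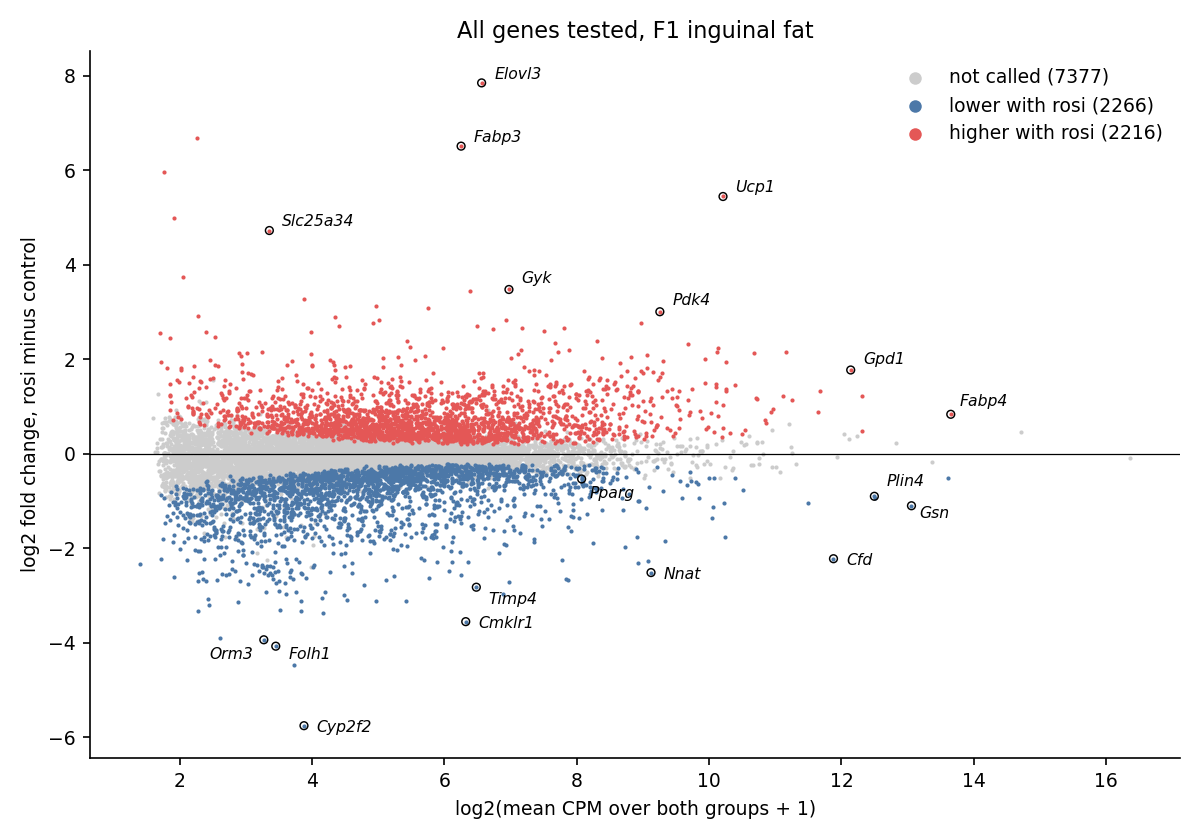
Log2 fold change (rosi minus control, vertical axis) of each of 11859 genes against its mean level over the 10 F1 libraries as log2(CPM + 1) (horizontal axis), with genes coloured as higher, lower or not called at an adjusted p under 0.05. The 2216 higher and 2266 lower genes spread over the whole range of levels, and named genes carry labels.

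Genes of brown fat thermogenesis were among the most changed. Of 38 such genes in the files, 30 passed the filter on low counts. Of these, 23 were higher and 1 was lower, against 18.7% and 19.1% of all genes, and 17 had every rosi library above every control library, against 14.3%. Their median log2 fold change was 1.996, against -0.03 for all genes tested. Elovl3 and Fabp3, at 0 to 1.85 and 0.244 to 3.75 CPM in controls, passed the filter through the rosi libraries. The filter thus favoured a higher call for them.

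Ucp1 was at 132, 75.9, 11.3, 27.2 and 17.5 CPM in control replicates 1 to 5 and at 2199.7, 1044, 3770.3, 575 and 3984 CPM in rosi replicates 1 to 5. The groups did not overlap, and within each group the libraries spread widely: control replicates 1 and 2 were the highest controls, and rosi replicates 2 and 4 the lowest treated libraries. The log2 fold change was 5.45 ± 0.74, or 43.6-fold (adjusted p = 9.23e-05). The start of the gene is printed below from RefSeq (GRCm38.p6, chr8:83290098-83290397, plus strand), 250 bases before to 50 after the annotated start, since the response of Ucp1 is what the series set out to follow. The strong enhancer of Ucp1 is known to lie further upstream and is not in this window.

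Ucp1: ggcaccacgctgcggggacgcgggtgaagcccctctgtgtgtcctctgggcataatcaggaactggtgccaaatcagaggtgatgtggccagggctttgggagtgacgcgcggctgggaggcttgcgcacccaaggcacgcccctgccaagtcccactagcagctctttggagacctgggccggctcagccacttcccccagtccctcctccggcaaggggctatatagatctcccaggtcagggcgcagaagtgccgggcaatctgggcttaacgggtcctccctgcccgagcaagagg

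Cidea, a droplet protein of brown fat that feeds lipid to the droplet, was at 154, 193, 88.6, 109.5 and 101 CPM in controls and 1056, 584, 1052, 607 and 1080.5 CPM with rosi. All 5 treated libraries lay above all controls, again with replicates 2 and 4 lowest (log2 2.76 ± 0.25, adjusted p = 5.12e-06). Elovl3, which elongates fatty acids in brown fat, was near 0 in controls (1.67, 1.85, 0, 0.235 and 0 CPM) and at 194, 80.0, 283, 58.1 and 315 CPM with rosi. Both of the controls with more than 1 CPM were replicates 1 and 2, and the fitted change was 7.85 ± 0.70 on the log2 scale (adjusted p = 4.44e-06). Fabp3, the fatty acid binding protein of oxidative tissues, was at 3.75, 1.16, 0.451, 2.11 and 0.244 CPM in controls and 184, 22.9, 290.0, 30.7 and 216 CPM with rosi (log2 6.51 ± 0.85, adjusted p = 6.86e-05). Its treated libraries fell into 3 high and 2 low ones, replicates 2 and 4.

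Otop1, a proton channel gene of thermogenic fat, rose from 51.2 ± 15.9 to 309.7 ± 59.9 CPM (SD; log2 2.60 ± 0.21). Clstn3, whose adipocyte form acts on lipid use in thermogenic fat, rose from 50.7 ± 15.5 to 232 ± 36.2 CPM (log2 2.19 ± 0.18). Dio2, which makes active thyroid hormone inside brown fat cells, was at 6.24, 7.87, 3.16, 1.41 and 3.90 CPM in controls and 28.4, 27.6, 60.9, 5.68 and 49.0 CPM with rosi. Rosi replicate 4 lay within the control range, so the groups overlapped, although the difference was called (log2 2.89 ± 0.53, adjusted p = 0.000945). The heart and brown fat forms of cytochrome c oxidase subunits also rose: Cox7a1 from 13.7 ± 8.38 to 152 ± 71.1 CPM (log2 3.45 ± 0.41) and Cox8b from 101 ± 29.0 to 528 ± 108 CPM (log2 2.39 ± 0.19).

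Prdm16, a transcriptional coregulator of the brown fat program, was at 20.2, 38.4, 21.2, 24.2 and 25.6 CPM in controls and 40.3, 33.7, 45.4, 25.9 and 29.2 CPM with rosi. The groups overlapped and the difference was not called (log2 0.42 ± 0.19, adjusted p = 0.0999), while without control replicate 2 it was (log2 0.63, adjusted p = 0.0114). Slc29a1, a nucleoside transporter, was the 1 member of the list called lower (log2 -0.55 ± 0.19), and it lost this call in 9 of 21 alternatives, among them DESeq2 and the fits without control replicate 1 or 3, with an adjusted p of up to 0.106. Zic1, a transcription factor that marks classical brown fat, had 0 counts in all 10 libraries, which allows up to 0.142 CPM over the control group and 0.150 CPM over the rosi group, for counting error only. The 6 hemoglobin genes in the files also had 0 counts in all 10, so a 0 here need not mean that RNA was absent. Of 15 beige selective markers in the files, 8 were tested, 2 were higher (25.0%) and 2 lower (25.0%; median log2 0.16), near the shares of 18.7% and 19.1% of all genes for so few members. Without control replicate 1, 3 were higher. The fatty acid transporter Slc27a1 rose by 1.33 ± 0.19 and the nuclear body protein Sp100 was lower (log2 -0.87 ± 0.26).

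**Figure D2:**
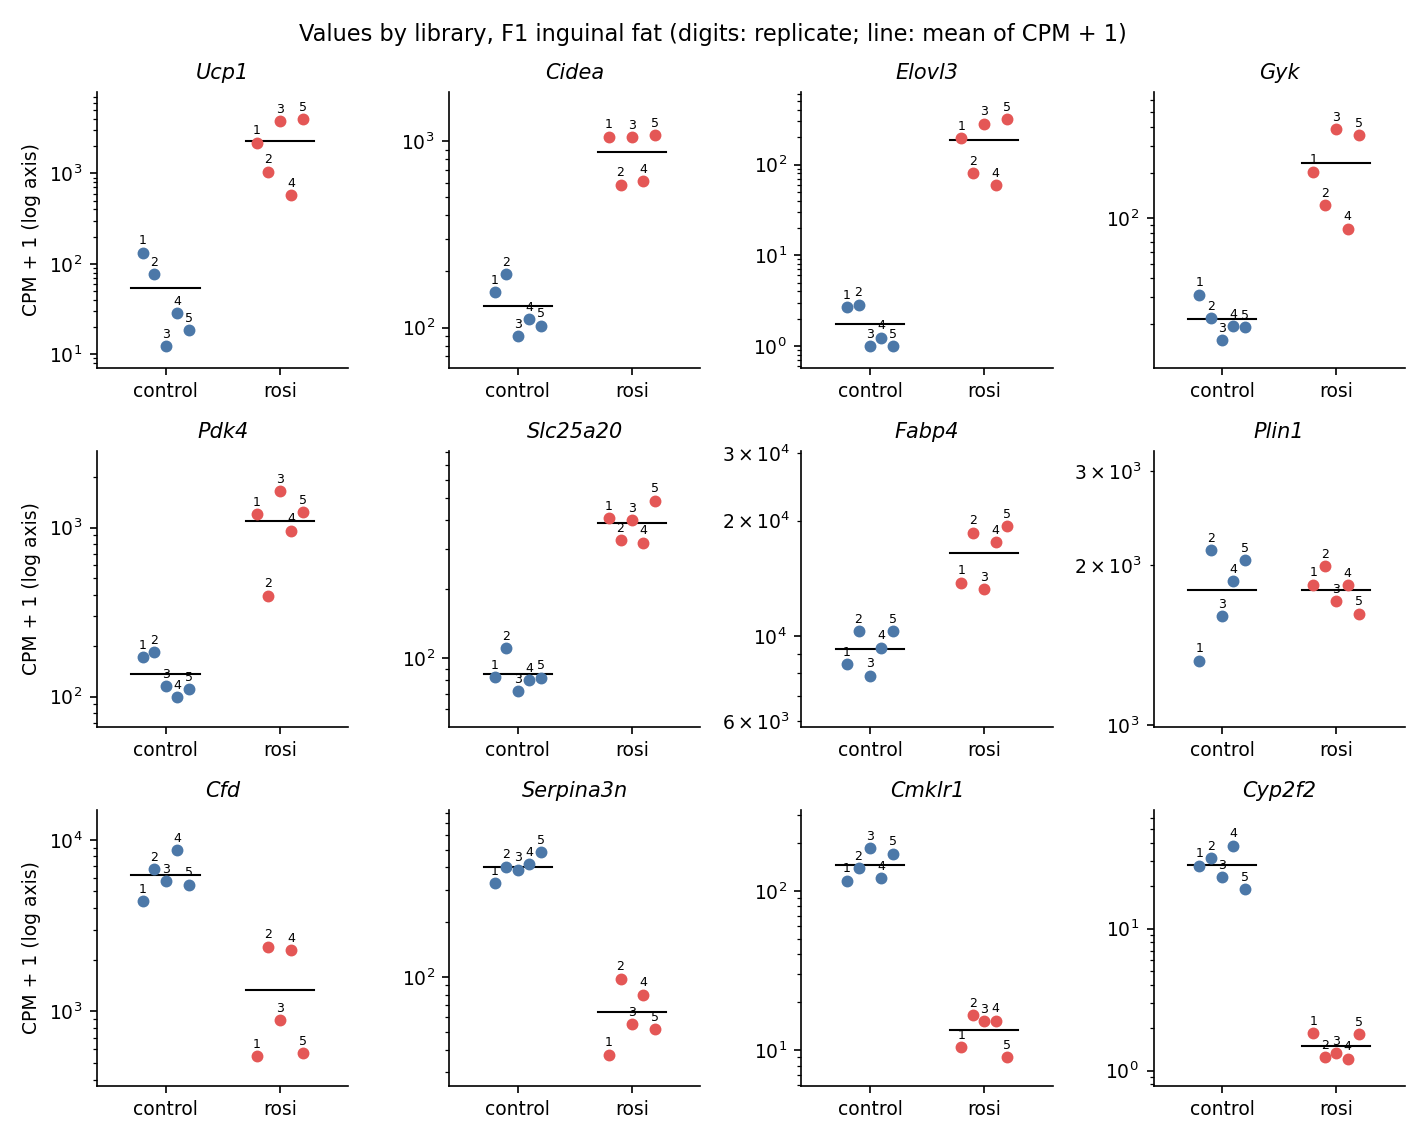
CPM + 1 on a log axis for 12 genes in each F1 library, with control and rosi side by side, digits for replicate numbers and a line at the mean of CPM + 1. Ucp1, Cidea, Elovl3, Gyk, Pdk4, Slc25a20 and Fabp4 have all treated libraries above all controls, Plin1 overlaps between groups, and Cfd, Serpina3n, Cmklr1 and Cyp2f2 have all treated libraries below all controls.

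Rosi replicates 2 and 4 had a common place in the order of treated libraries. They were the 2 lowest treated libraries in 13.01% of all genes tested, in 53.1% of the genes higher at least 2-fold (269 of 507), in 22 of 30 thermogenic genes and in 19 of 24 genes of fatty acid oxidation. They were the 2 highest in 11.3% of all genes and in 28.8% of the genes lower at least 2-fold (200 of 694). Epithelial markers split the same libraries, with summed levels of 115, 4.64, 29.2, 2.103 and 135 CPM in rosi replicates 1 to 5. Among treated libraries the sum was thus lowest in replicates 2 and 4. In controls it was 34.1, 6.25, 12.6, 9.38 and 9.99 CPM. Trp63, a gene of basal epithelium, made up most of it in control replicates 2 to 5, at 4.63 to 10.8 CPM. With rosi Trp63 was at 0.210 to 2.14 CPM, so the sums of these controls and of rosi libraries rested on different members. Adipocyte marker sums were 46162, 62328, 46244, 63976 and 51451 CPM in rosi replicates 1 to 5, highest in replicates 2 and 4. Progenitor and fibroblast sums, at 5433, 9065, 5804, 9938 and 5157 CPM, were also highest there, as were nerve and Schwann cell sums. Macrophage sums (299, 402, 415, 578 and 455 CPM) and endothelial sums did not split this way. The part of any of these cell types in the order of the thermogenic genes was not tested. Without rosi replicate 2 or without rosi replicate 4, Ucp1, Cidea, Elovl3, Fabp3, Otop1, Clstn3, Dio2, Cox7a1 and Cox8b kept their calls.

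Among nuclear receptors and coregulators, Ppara and the PGC-1 coactivators rose and Pparg itself was lower. Of 40 tested genes in this group, 11 were higher (27.5%, against 18.7% of all genes) and 8 lower (20%, near the 19.1% of all genes). The median was -0.05 (log2), a value that changed sign between settings. Without control replicate 4, 5 were lower, and without control replicate 1, 10 were. Ppara, the fatty acid sensing relative of PPAR gamma, was at 61.0, 89.5, 41.0, 84.0 and 56.5 CPM in controls and 412, 147, 486, 259 and 381 CPM with rosi. No library overlapped, and the log2 fold change was 2.34 ± 0.29 (adjusted p = 5.25e-05). Ppargc1a, the coactivator PGC-1 alpha that drives mitochondrial biogenesis, rose from 26.0 ± 8.12 to 77.1 ± 21.3 CPM (log2 1.56 ± 0.22). Control replicate 2, at 40.5 CPM, stood above the 21.2 to 23.5 CPM of the other controls. Ppargc1b, its relative PGC-1 beta, rose by 1.88 ± 0.24 and the receptor Esrra, which works with both on mitochondrial genes, by 1.14 ± 0.15.

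Pparg, the target of the drug, was at 214, 357, 373, 273 and 369 CPM in controls and 222, 211, 236, 177 and 251 CPM with rosi. Control replicate 1 lay among the treated libraries, so the groups overlapped, and the difference was called (log2 -0.53 ± 0.15, adjusted p = 0.0156). Klf15 and Cebpd, transcription factors of fat cells that glucocorticoids induce, were both lower. Klf15 was at 61.8 to 115 CPM in controls and 33.4 to 64.6 CPM with rosi, with an overlap through rosi replicate 4 (log2 -1.15 ± 0.20). Cebpd was at 7.17 to 17.5 and 0.972 to 5.62 CPM with no overlap (log2 -1.89 ± 0.38).

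Genes that bring fatty acids into the cell and bind them were more often higher than lower. Of 20 tested, 10 were higher and 0 lower (18.7% and 19.1% of all genes), with a median of 0.44. Without control replicate 1, or without scaling factors, 2 were lower, and with the replicate block 1 was. Fabp4, the fatty acid binding protein of fat cells, was at 8447, 10284, 7894, 9335 and 10291 CPM in controls and 13787, 18599, 13284, 17558 and 19375 CPM with rosi, without overlap (log2 0.84 ± 0.16, adjusted p = 0.00124). Its relative Fabp5 was at 215 to 319 and 695 to 1181 CPM (log2 1.74 ± 0.17). Cd36, the fatty acid translocase, changed less, from 4251 ± 414 to 5948 ± 733 CPM (log2 0.48 ± 0.13, adjusted p = 0.0114). Lpl, the lipase that frees fatty acids from lipoproteins, was at 4545 to 7716 CPM in controls and 7045 to 8621 CPM with rosi and was not called (log2 0.23 ± 0.16, adjusted p = 0.272). Angptl4, a secreted inhibitor of Lpl and a classic PPAR target, rose by 0.96 ± 0.14, and Acsl1, which activates fatty acids with coenzyme A, by 1.22 ± 0.16.

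Proteins of the lipid droplet differed by member. Of 21 tested, 11 were higher and 1 was lower (median 0.44). Plin5, which ties droplets to mitochondria, was at 41.8, 61.3, 27.7, 28.6 and 35.8 CPM in controls and 259, 252, 272, 135 and 324 CPM with rosi, and all treated libraries lay above all controls (log2 2.66 ± 0.25, adjusted p = 6.04e-06). Plin2, the perilipin of many cell types, rose from 579 ± 116 to 1619 ± 443 CPM (log2 1.48 ± 0.19). Plin1 did not pass the test (log2 0.00 ± 0.14, adjusted p = 0.986), and its sign changed between settings. Plin4, on the other hand, was at 5264, 8322, 7151, 8258 and 8665 CPM in controls and 3359, 5517, 3635, 5239 and 2453 CPM with rosi, and was lower (log2 -0.90 ± 0.22, adjusted p = 0.0065). Rosi replicates 2 and 4 came up to the level of control replicate 1, so the groups overlapped. Of the lipolysis genes, Pnpla2, the triglyceride lipase, rose by 0.94 ± 0.16 and its coactivator Abhd5 by 1.04 ± 0.13.

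Glycerol handling and triglyceride synthesis held 8 higher and 3 lower genes of 21 tested (median 0.15). Gyk, glycerol kinase, which lets fat cells reuse glycerol, was at 30.2, 20.8, 14.7, 18.3 and 18.03 CPM in controls and 201, 121, 386, 83.9 and 353 CPM with rosi. Treated libraries were all above the controls, with replicates 2 and 4 lowest (log2 3.48 ± 0.40, 11.1-fold, adjusted p = 2.59e-05). Gpd1, which makes glycerol 3-phosphate, rose from 2043 ± 349.7 to 6987 ± 1544 CPM (log2 1.77 ± 0.18), and the acyltransferases Agpat2 and Agpat3 by 1.47 ± 0.18 and 1.11 ± 0.12. Pck1, the enzyme of glyceroneogenesis and a known target of PPAR gamma, was at 2467 to 4635 CPM in controls and 3870.4 to 5641 CPM with rosi and was not called (log2 0.41 ± 0.19, adjusted p = 0.0972). Mogat2, a monoacylglycerol acyltransferase, was at 3.12 to 9.74 CPM in controls and 0.803 to 2.23 CPM with rosi (log2 -2.04 ± 0.36). Without control replicate 1, 5 members of this group were lower.

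De novo lipogenesis had 8 higher genes and 1 lower of 23 (median 0.37). Acacb, the acetyl-CoA carboxylase at the mitochondrion, rose from 513 ± 198 to 1453 ± 232 CPM (log2 1.502 ± 0.23), Me1, malic enzyme, rose by 1.03 ± 0.19, and Fads1, a desaturase of polyunsaturated fatty acids, was lower (log2 -0.85 ± 0.14). In adrenergic and antilipolytic signalling 11 of 30 were higher and 3 lower (median 0.31). Adra1a, the alpha 1A receptor, was at 19.7 to 37.0 CPM in controls and 71.7 to 101 CPM with rosi (log2 1.71 ± 0.15). Prkar2b, a regulatory subunit of protein kinase A, rose by 0.76 ± 0.12, and Gnai2, an inhibitory G protein subunit, was lower (log2 -0.51 ± 0.09).

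Nearly all tested nuclear genes of the respiratory chain rose. All 36 tested subunits of complex I were higher, with 36 of 36 free of overlap, against 14.3% of all genes, and the 1 other in the files, Ndufs5, was listed at 0 in all 10 libraries. Of 41 genes of complexes II to V, 38 were higher and 0 lower, 37 of them without overlap. Their medians were 1.15 and 1.16, against -0.03 for all genes, and the members of complex I spread only from 0.65 to 1.59. Within the list, subunits of complex I summed to 3169, 3825, 2644, 3214 and 3223 CPM in controls and 7474, 6418, 6949.8, 6606 and 9170.4 CPM with rosi. The lowest treated library, replicate 2, was thus above the highest control, also replicate 2.

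Ndufv1, the subunit that takes electrons from NADH, rose from 198 ± 36.0 to 567 ± 78.2 CPM (log2 1.52 ± 0.14) and Ndufa10, an accessory subunit, by 1.59 ± 0.14. In complex III, cytochrome c1 (Cyc1) was at 104, 167, 107, 129.7 and 125 CPM in controls and 464, 332, 457, 362 and 515 CPM with rosi. The treated libraries, at 332 to 515 CPM, were all above the controls, at 104 to 167 CPM (log2 1.75 ± 0.16, adjusted p = 4.35e-06). Cox5a, a subunit of complex IV, rose by 1.83 ± 0.16, and Atp5b, the catalytic beta subunit of ATP synthase, from 1862 ± 259.6 to 4688 ± 599 CPM (log2 1.33 ± 0.14). The 3 genes of complexes II to V that were not called were the ATP synthase genes Atp5g1 and Atp5g3, whose products share 1 mature protein sequence, and the inhibitor Atpif1; they are named after their values were seen.

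The machinery that builds mitochondria moved with the chain. Of 76 mitochondrial ribosomal protein genes, 68 were higher and 0 lower (median 0.73, range 0.10 to 1.61), Mrps2 of the small subunit going from 16.4 ± 1.46 to 47.6 ± 8.79 CPM (log2 1.53 ± 0.14). Of 30 genes of protein import and folding, 28 were higher and 1 lower (median 0.86). Tomm40, the pore of the outer membrane, rose by 1.23 ± 0.10, the chaperonin Hspd1 by 1.12 ± 0.11, and Tomm34, a cytosolic cochaperone of import, was called lower (log2 -0.43 ± 0.15), a call lost in 11 of 21 alternatives, among them DESeq2, the replicate block and the fit without control replicate 1, with an adjusted p of up to 0.119. Of 22 genes of coenzyme Q synthesis and upkeep of mitochondrial DNA, 17 were higher and 0 lower (median 0.62; 14 higher without control replicate 1), with the methyltransferase Coq5 rising by 1.32 ± 0.10. Chchd10, a protein of the space between the mitochondrial membranes, and Slc25a34, a mitochondrial carrier, rose by 2.84 ± 0.22 and 4.73 ± 0.57. Both were among the 12 higher genes with the largest folds without overlap at a mean of at least 10 CPM.

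**Figure D3:**
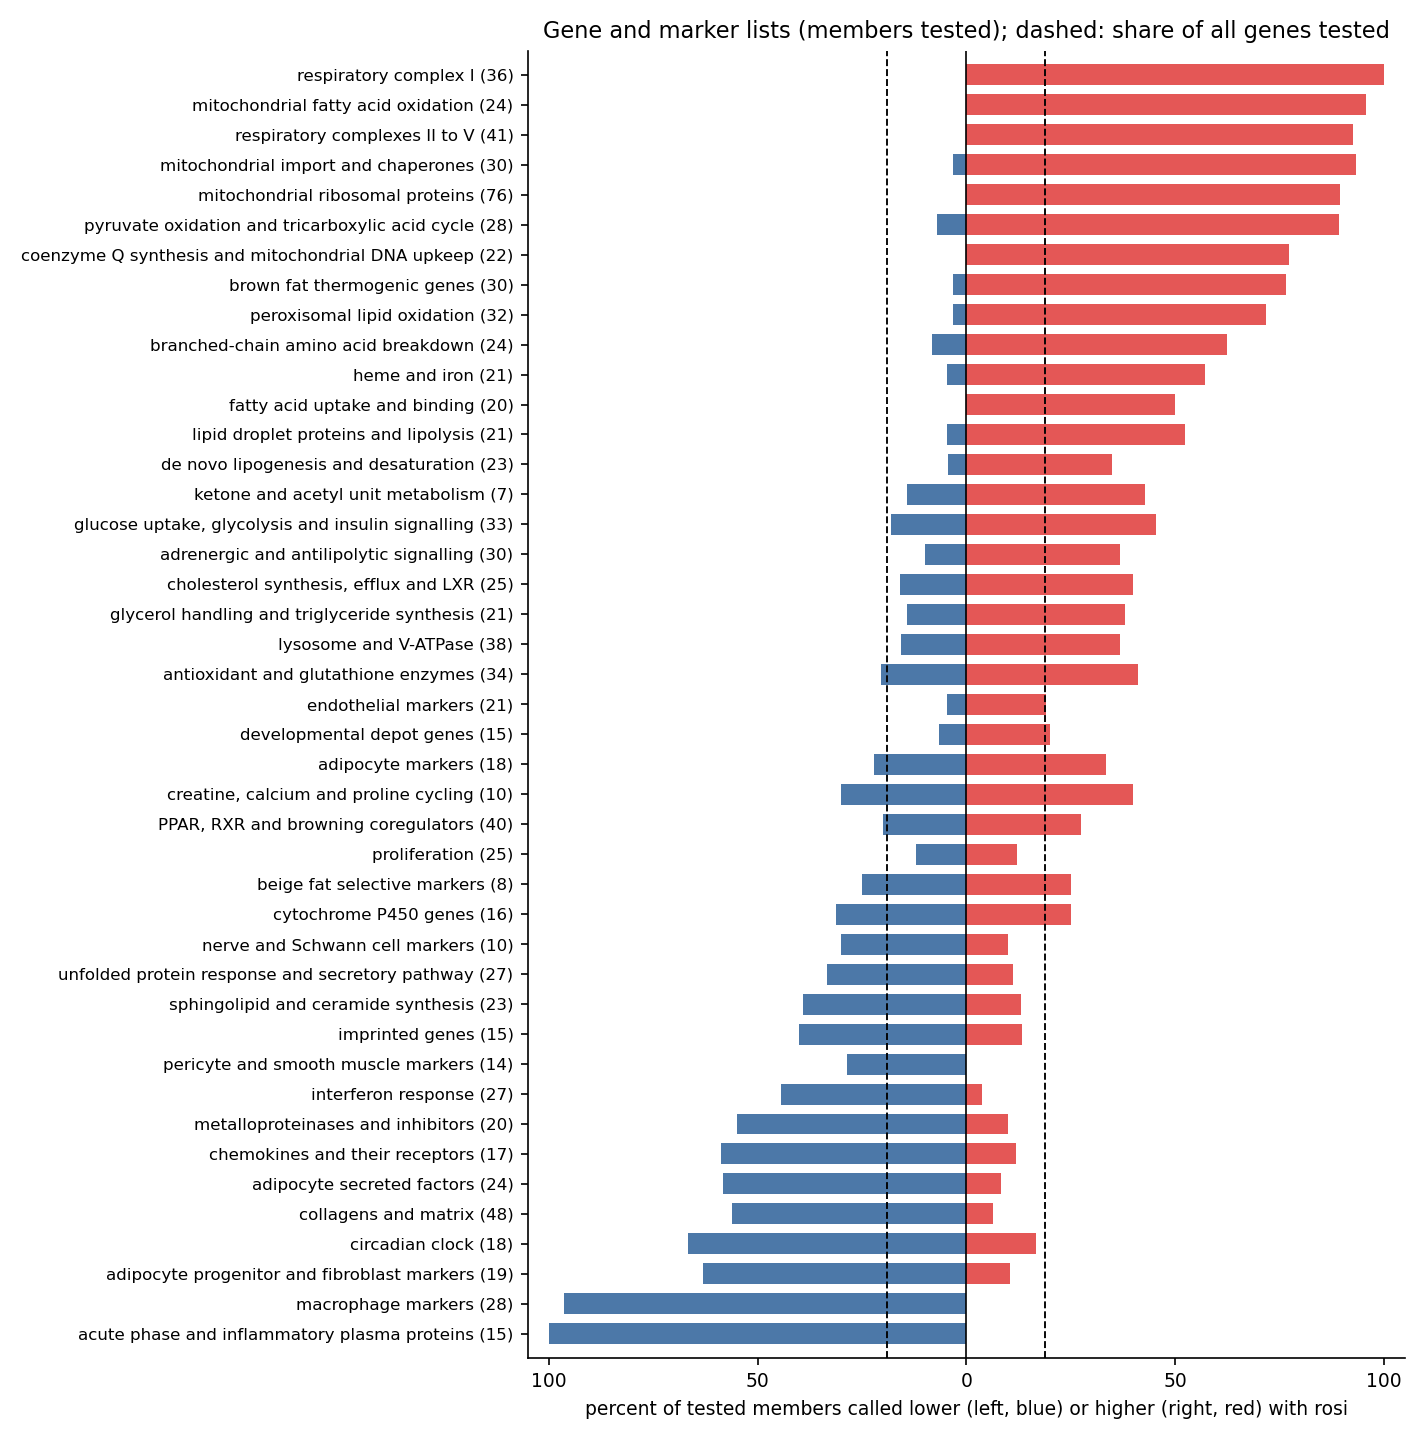
Percent of tested members called higher (right) and lower (left) at an adjusted p under 0.05 for each gene list with at least 7 tested members, and dashed lines at the share of all genes tested (18.7% higher, 19.1% lower). Respiratory chain, import, fatty acid oxidation and citrate cycle lists lie far to the higher side, and acute phase, macrophage and clock lists to the lower side.

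Most tested genes of fuel oxidation in mitochondria rose. Of 28 genes of pyruvate oxidation and the citrate cycle, 25 were higher and 2 lower (median 1.39), and of 24 genes of mitochondrial fatty acid oxidation, 23 were higher and 0 lower (median 1.43). Idh3a, of the NAD-dependent isocitrate dehydrogenase, rose by 1.72 ± 0.15 and malate dehydrogenase Mdh2 by 1.61 ± 0.14.

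Of the kinases that switch pyruvate dehydrogenase off, Pdk4 rose and Pdk3, 1 of the 2 lower members of its list, fell. Pdk4 was at 170.3, 182, 114, 98.3 and 109.9 CPM in controls and 1203, 394, 1643, 956 and 1233 CPM with rosi, with rosi replicate 2 the lowest of the treated libraries and still above all controls (log2 3.01 ± 0.32, adjusted p = 1.5e-05). Pdk3 was at 4.40 to 9.78 CPM in controls and 0.834 to 3.16 CPM with rosi (log2 -1.55 ± 0.31). In fatty acid oxidation, the carnitine carrier Slc25a20 was at 81.6, 109.9, 70.8, 79.0 and 81.1 CPM in controls and 408, 326, 399.9, 318 and 486 CPM with rosi, with no overlap (log2 2.20 ± 0.15, adjusted p = 1.12e-06). Acadvl, which starts the oxidation of long chains, rose by 2.16 ± 0.17, and Etfdh, which hands its electrons to coenzyme Q, by 1.92 ± 0.16. Cpt1a was the tested gene of this list that was not called, named here after its value was seen, and Cpt1b, the muscle and brown fat form of the same carnitine transferase, was under the filter.

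Peroxisomal oxidation had 23 higher genes and 1 lower of 32 (median 0.55). Ehhadh, the bifunctional enzyme of the peroxisome, rose from 79.1 ± 10.8 to 312 ± 89.9 CPM (log2 1.98 ± 0.19). Acaa1b, a peroxisomal thiolase, rose by 2.63 ± 0.15, and its reads cannot be told apart with certainty from those of its close copy Acaa1a. Pxmp2, a channel of the peroxisomal membrane, was lower (log2 -1.06 ± 0.16). In the breakdown of branched-chain amino acids 15 of 24 were higher and 2 lower (median 0.47). Both subunits of the branched-chain dehydrogenase E1 rose, Bckdha by 0.97 ± 0.12 and Bckdhb by 0.93 ± 0.11, while Ppm1k, the phosphatase that activates that complex, was lower (log2 -0.81 ± 0.13).

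Glucose uptake, glycolysis and insulin signalling held 15 higher and 6 lower genes of 33 (median 0.28). The glycolytic enzymes Pgam1 and Aldoa rose by 1.56 ± 0.17 and 1.14 ± 0.15. Slc2a4, the insulin-regulated glucose transporter, was at 210.4, 361, 319, 340.4 and 357 CPM in controls and 413, 451, 394, 402 and 479 CPM with rosi. The groups did not overlap, and the small difference (log2 0.43 ± 0.14, adjusted p = 0.0255) lost its call without control replicate 3, rosi replicate 2 or rosi replicate 5, where the adjusted p reached 0.0589. Pik3r1, the regulatory subunit of PI 3-kinase, was at 452, 489.5, 751, 402 and 775 CPM in controls and 247, 277, 215, 251 and 272 CPM with rosi, lower in every treated library (log2 -1.18 ± 0.18, adjusted p = 0.000226). Foxo1, a transcription factor that insulin restrains, was also lower (log2 -0.76 ± 0.14), with an overlap through control replicate 1.

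Genes of redox defence moved in both directions, and members were not counted by their place in the cell. Of 34 tested, 14 were higher and 7 lower (median 0.24; 11 and 9 without control replicate 1). The mitochondrial enzymes Sod2 and Prdx3 rose by 1.37 ± 0.14 and 1.23 ± 0.13, and Cat, also in the peroxisomal list, was called higher too. The cytosolic glutathione transferases Gsta3, Gstt1 and Gstm2 were lower, at -1.94 ± 0.23, -1.69 ± 0.16 and -1.64 ± 0.15, and each belongs to a family of close copies among which reads may be shared. In heme and iron handling 12 of 21 were higher and 1 lower (median 0.49). Trf, the iron carrier transferrin, was at 1257, 1677, 2062, 2399 and 1933 CPM in controls and 275, 953, 339, 841 and 335 CPM with rosi. The treated libraries were all lower, with replicates 2 and 4 closest to the controls (log2 -1.76 ± 0.34, adjusted p = 0.0012). Cisd1, the protein mitoNEET of the outer mitochondrial membrane that thiazolidinediones also bind, rose by 1.04 ± 0.13.

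Ceramide and cholesterol genes showed single strong changes and no common direction. In sphingolipid synthesis 3 of 23 were higher and 9 lower (median -0.19), and 5 were lower without rosi replicate 5 and 6 without control replicate 1. Log2 fold changes of the tested members ran from -2.65 to 6.67, so the largest change in this list was a rise. Cers6, the ceramide synthase for 16-carbon chains, was at 21.9, 12.3, 24.1, 26.5 and 19.2 CPM in controls and 3.06, 4.15, 3.24, 4.42 and 1.34 CPM with rosi. Its highest treated library was below its lowest control (log2 -2.65 ± 0.28, adjusted p = 1.29e-05). In cholesterol synthesis and efflux 10 of 25 were higher and 4 lower, 2 of them without control replicate 3, and the median of 0.08 changed sign between settings. Among genes that LXR is known to control, the phospholipid enzymes Pltp and Lpcat3 rose by 1.24 ± 0.09 and 1.23 ± 0.13, and Apoe fell from 1516 ± 199 to 589 ± 181 CPM (log2 -1.36 ± 0.20).

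Many genes for secreted products of fat tissue fell. Of 24 adipocyte secreted factors tested, 14 were lower and 2 higher, against 19.1% and 18.7% of all genes, with a median of -0.67. Without control replicate 1, 17 were lower. Adipoq was not called (log2 0.02 ± 0.18, adjusted p = 0.945), and its sign changed between settings. Lep, the satiety hormone leptin, was at 1165, 1059.6, 1271, 1004 and 1536 CPM in controls and 615, 755, 454, 563 and 769 CPM with rosi, and every treated library was lower (log2 -0.93 ± 0.16, adjusted p = 0.000615). Cfd, the complement factor adipsin, was at 4372, 6755, 5766, 8670.0 and 5473 CPM in controls and 549, 2379.6, 885, 2278 and 568 CPM with rosi. Here too rosi replicates 2 and 4 lay between the controls and the other treated libraries (log2 -2.22 ± 0.41, 4.66-fold lower, adjusted p = 0.000976). Agt, angiotensinogen, was at 7.17 to 43.3 CPM in controls and 0.556 to 3.17 CPM with rosi (log2 -3.31 ± 0.56), and Dpt, the matrix protein dermatopontin, fell by 3.92-fold (log2 -1.97 ± 0.14). Inhbb, a subunit of activin B, was also lower (log2 -1.18 ± 0.19).

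Every tested gene for acute phase and inflammatory plasma proteins was lower: 15 of 15, of 28 in the files, with 14 free of overlap (11.4% of all genes) and a median of -2.11. Summed over the list, they were at 4857, 4556, 4680.1, 5833 and 4226 CPM in controls and 1122, 1861, 1343, 1809.7 and 1443 CPM with rosi. Serpina3n, a protease inhibitor, was at 327, 404, 388, 416 and 484 CPM in controls and 36.4, 97.1, 54.1, 79.1 and 50.6 CPM with rosi, with no overlap (log2 -2.66 ± 0.22, adjusted p = 2.9e-06). Hp, haptoglobin, fell from 1008 ± 226 to 279 ± 28.9 CPM (log2 -1.85 ± 0.15), and Lbp, which binds bacterial lipopolysaccharide, from 39.9 ± 12.1 to 6.87 ± 0.812 CPM (log2 -2.53 ± 0.21). Orm3, an orosomucoid with close copies in Orm1 and Orm2, fell by 15.3-fold (log2 -3.93 ± 0.35). Macrophage markers were lower in the same libraries, at 573 to 2158 CPM summed in controls and 299 to 578 CPM with rosi, and their part in this and in the chemokine, interferon and lysosome genes below was not tested.

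Chemokines and their receptors had 10 lower and 2 higher genes of 17 tested (median -0.85), and 23 of the 40 in the files were under the filter. Cmklr1, the receptor for the adipokine chemerin, was at 115, 138, 184, 119.6 and 171 CPM in controls and 9.46, 15.6, 14.3, 14.3 and 8.03 CPM with rosi. The groups lay far apart, with the treated libraries close together near the low end (log2 -3.55 ± 0.19, 11.7-fold lower, adjusted p = 2.96e-07). Ccl11, eotaxin, fell from 35.6 ± 4.82 to 15.9 ± 1.62 CPM (log2 -1.16 ± 0.12), and the scavenging receptor Ackr4 rose by 1.29 ± 0.12. Of 27 interferon response genes, 12 were lower and 1 higher (median -0.58; 11 lower without control replicate 1). Gbp2, a GTPase that interferon induces, was lower (log2 -0.78 ± 0.09), as was the regulator Irf7 (log2 -1.35 ± 0.17), while Ifi27 rose by 1.04 ± 0.12; Ifi27 has close relatives in the genome. Lysosome genes split into 14 higher and 6 lower of 38, with a median of 0.10 that changed sign between settings. The cathepsins Ctsk and Ctsl, proteases that also act on matrix, were lower (log2 -1.71 ± 0.19 and -1.37 ± 0.11).

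Matrix genes were more often lower. Of 48 genes of collagens and matrix, 27 were lower and 3 higher (median -0.58; 34 lower without control replicate 1), against 19.1% and 18.7% of all genes, and of 20 metalloproteinases and inhibitors, 11 were lower and 2 higher (median -0.70; 7 lower without control replicate 3). Dcn, the proteoglycan decorin, was at 543, 444, 572, 518 and 314 CPM in controls and 79.0, 132, 139, 157 and 137 CPM with rosi. Thbs2, thrombospondin 2, was at 101, 72.4, 119, 109 and 96.7 and 26.4, 25.6, 21.7, 30.9 and 20.9 CPM. In both genes every treated library was below every control (log2 -1.89 ± 0.19 and -1.98 ± 0.14). Timp4, an inhibitor of metalloproteinases that fat cells make, fell from 155 ± 36.5 to 21.9 ± 4.26 CPM (log2 -2.82 ± 0.18), and the aggrecan protease Adamts5 from 361 ± 61.1 to 75.5 ± 23.2 CPM (log2 -2.25 ± 0.18).

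A few matrix genes went the other way. Adam12, a metalloproteinase and adhesion protein, was at 45.4, 97.6, 61.3, 44.3 and 55.5 CPM in controls and 345, 414, 362, 358 and 438 CPM with rosi, with treated libraries close together and far above the controls (log2 2.66 ± 0.19, adjusted p = 1.61e-06). Col27a1, a fibrillar collagen outside the list, was at 15.6, 10.6, 9.47, 8.91 and 10.5 and 124, 61.0, 145, 39.5 and 104.7 CPM, again with rosi replicates 2 and 4 lowest (log2 3.08 ± 0.33, adjusted p = 1.42e-05). Postn, periostin, rose by 1.05 ± 0.25, of which rosi replicate 3 was a large part: without it the log2 fold change was 0.69. Markers of progenitors and fibroblasts, which make much of the matrix, summed to 11897 to 15335 CPM in controls and 5157 to 9938 CPM with rosi, and their part in the matrix genes was not tested.

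Markers of the cells that fat tissue holds beside adipocytes moved unequally. In bulk tissue, fewer cells of a type and less of its RNA per cell cannot be told apart, and this holds for every result here. Of 28 tested macrophage markers, 27 were lower and 0 higher (median -1.43). Of the 28, 11 had every rosi library below every control, against 11.4% of all genes. Without control replicate 1, 23 were lower (median -1.16). Their sum was 2158, 905, 1398, 1258 and 573 CPM in controls and 299, 402, 415, 578 and 455 CPM with rosi, so that the lowest control and the highest treated library crossed. Cd163, a scavenger receptor of resident macrophages, was at 113, 93.9, 149, 135 and 53.3 CPM in controls and 14.2, 22.2, 27.2, 36.8 and 28.7 CPM with rosi (log2 -2.07 ± 0.27, adjusted p = 7e-05). Trem2, a lipid sensing receptor, and the complement gene C1qb were also lower (log2 -2.51 ± 0.28 and -1.61 ± 0.24).

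Progenitor and fibroblast markers had 12 lower and 2 higher of 19 (median -0.93). Cd34, a surface marker of progenitors and endothelium, fell from 87.2 ± 22.6 to 28.0 ± 4.07 CPM (log2 -1.63 ± 0.17), and Gsn, gelsolin, from 11638 ± 1303 to 5434 ± 2058 CPM (log2 -1.10 ± 0.23), while Svep1, a matrix protein, rose by 1.03 ± 0.19. Endothelial markers had 4 higher of 21 (19.05%, near the 18.7% of all genes) and 1 lower, with a median of -0.01 that changed sign between settings. Rbp7, a retinol binding protein of fat endothelium, rose from 54.7 ± 13.8 to 127 ± 28.9 CPM (log2 1.21 ± 0.19), and Egfl7, a secreted endothelial protein, by 0.63 ± 0.14; without control replicate 1, 3 were lower. Of 14 pericyte and smooth muscle markers 4 were lower, among them Rgs5 (log2 -1.21 ± 0.16), and of 10 nerve and Schwann cell markers 3 were lower and 1 higher, with the sodium channel Scn7a at 592 to 823 CPM in controls and 175 to 272 CPM with rosi (log2 -1.77 ± 0.14). Summed adipocyte markers overlapped between groups, at 38699 to 57071 and 46162 to 63976 CPM, with 6 of 18 higher and 4 lower.

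The 3 tested lymph node markers were called lower, with most of the difference in control replicate 1. Cr2, the complement receptor of B cells, was at 108, 3.01, 3.16, 4.46 and 2.19 CPM in controls and 3.62, 2.68, 1.62, 2.73 and 1.34 CPM with rosi. Without that library its log2 fold change went from -3.32 to -0.40 (adjusted p = 0.351), that of Ptprc, the pan-leukocyte CD45, from -2.57 to -0.63 (adjusted p = 0.0366) and that of Cd52 from -2.69 to -0.83 (adjusted p = 0.0732). Bank1, a B cell adaptor, was among the 12 lower genes with the largest folds without overlap at a mean of at least 10 CPM. Its log2 fold change went from -3.12 to -1.01 without that library (adjusted p = 0.00613). Only 1 epithelial marker was tested, Trp63 of basal epithelium, which was lower (log2 -3.21 ± 0.43), while the summed list was highest in rosi replicates 1 and 5.

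**Figure D4:**
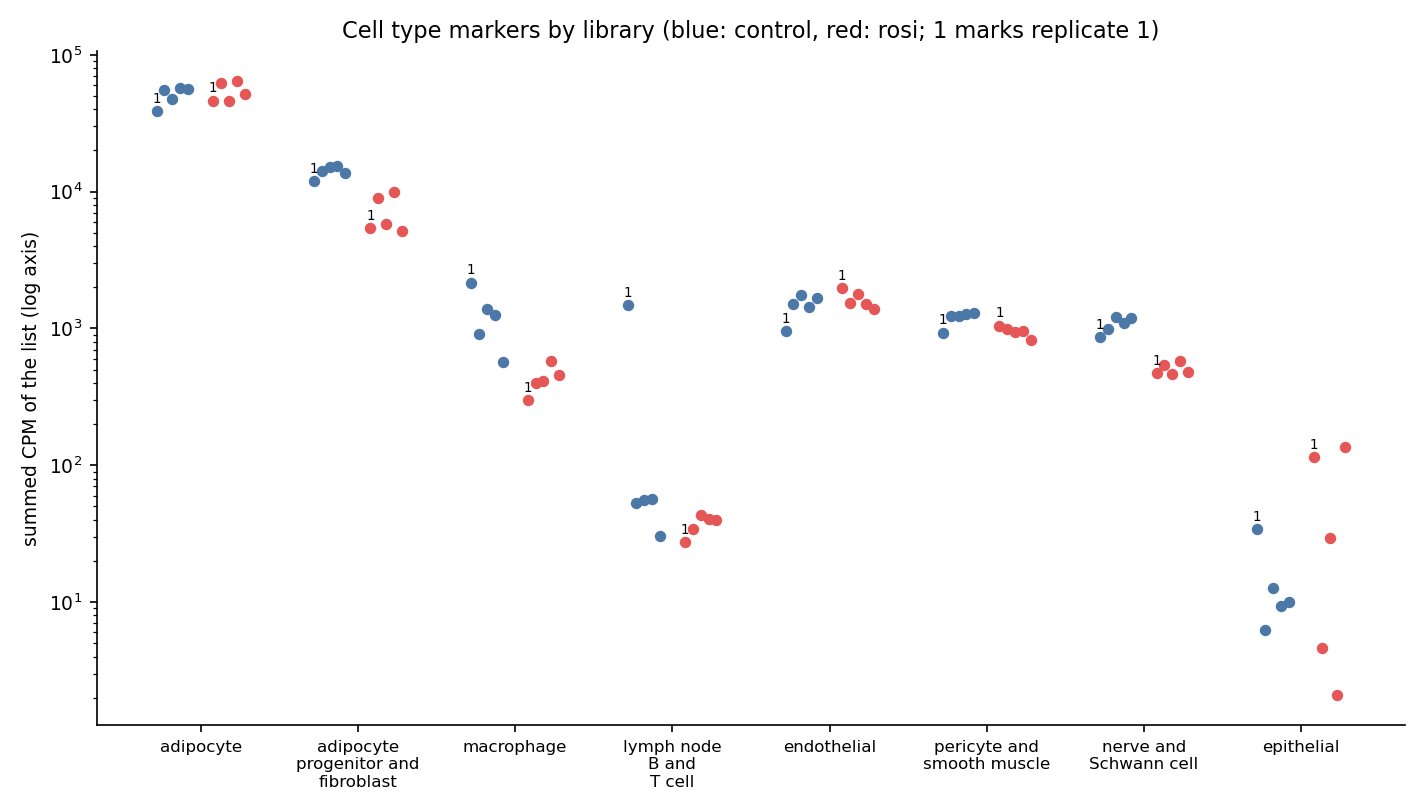
Summed CPM of 8 cell type marker lists (log axis) in each control and rosi library of F1 iWAT, with replicate 1 marked by its number. Control replicate 1 stands far above all other libraries for lymph node markers, macrophage sums are lower with rosi but cross at 1 library of each group, and adipocyte and endothelial sums overlap.

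Most tested clock genes were lower, while Arntl, Clock and Nfil3 were higher. Of 18 tested, 12 were lower and 3 higher (median -0.62). Dbp, an output factor of the clock, was at 62.0, 91.8, 77.6, 101 and 91.8 CPM in controls and 28.4, 22.4, 32.4, 28.0 and 17.7 CPM with rosi, without overlap (log2 -1.72 ± 0.16, adjusted p = 6.83e-06). Its relative Tef was lower (log2 -1.32 ± 0.13), as were the repressors Per2 and Per3 (log2 -1.51 ± 0.18 and -1.09 ± 0.16). Arntl, the core activator BMAL1, was at 8.33, 1.85, 1.58, 1.88 and 1.46 CPM in controls and 9.46, 25.1, 10.7, 8.83 and 14.995 CPM with rosi. All treated libraries were above all controls, and control replicate 1 was the highest control by far (log2 2.16 ± 0.47; 3.01 without that library). Clock, its partner, rose by 0.64 ± 0.08. The hour at which tissue was taken was not given in the sources used here.

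Imprinted genes had 6 lower and 2 higher of 15 (median -0.25). Nnat, neuronatin, was at 797, 888, 853, 1196 and 1001 CPM in controls and 142, 234, 130.0, 212 and 110.3 CPM with rosi, lower in every treated library (log2 -2.51 ± 0.21, 5.71-fold, adjusted p = 2.83e-06). Plagl1, a zinc finger growth regulator, and Mest, a gene that marks fat expansion, were lower (log2 -1.77 ± 0.23 and -1.18 ± 0.18). Of 15 developmental depot genes 3 were higher (20%, near the 18.7% of all genes) and 1 lower, Hoxa9 rising by 1.54 ± 0.21 and Hoxa10 by 0.93 ± 0.21; both are neighbours in a cluster where transcripts overlap, and counting by strand was not stated. In the unfolded protein response 9 of 27 were lower and 3 higher (median -0.09), with the transcription factor Xbp1 at -0.67 ± 0.13. Proliferation genes had 3 higher and 3 lower of 25, and the higher count was 6 without control replicate 1. Of 10 genes of creatine, calcium and proline cycling, 4 were higher and 3 lower, among them the calcium channel Ryr2 at 2.07 ± 0.51 and the creatine kinase Ckb at -1.02 ± 0.18.

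Cytochrome P450 genes had 4 higher and 5 lower of 16. They held the largest fold among lower genes without overlap at a mean of at least 10 CPM. Cyp2f2, an enzyme known from airway and liver for the oxidation of foreign compounds, was at 26.6, 30.3, 22.1, 37.3 and 18.03 CPM in controls and 0.834, 0.244, 0.324, 0.210 and 0.803 CPM with rosi (log2 -5.75 ± 0.33, 53.9-fold lower, adjusted p = 3.72e-07). Every treated library was under 1 CPM, and every control above all of them. Folh1, a peptidase that removes glutamate, was at 18.3, 9.49, 19.6, 22.05 and 24.4 CPM in controls and 0.278, 2.44, 1.296, 0.841 and 0.536 CPM with rosi (log2 -4.07 ± 0.39), and Ripk4, a kinase known from skin, fell from 31.0 ± 6.86 to 2.96 ± 1.66 CPM (log2 -3.37 ± 0.30). In the opposite direction Cyp4b1, a P450 that acts on fatty acids, rose by 1.15 ± 0.18, and Phospho1, a phosphatase known from bone mineral and brown fat, was at 7.49, 10.2, 6.99, 5.16 and 8.28 and 92.6, 23.7, 88.1, 22.9 and 48.2 CPM, with rosi replicates 2 and 4 lowest (log2 2.83 ± 0.41).

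The effect of rosi in F1 iWAT was then set against its effect in iWAT of the parent strains on HFD, as a difference of log2 fold changes tested by an interaction term. Strain, diet and sequencing run differ together between these sets and cannot be told apart. Against 129, 778 of 12800 genes had a more positive effect in F1 (6.08%) and 657 a more negative one (5.13%), 11.2% in all, where 8 genes were higher and 7 lower with rosi in 129 alone. Without 129 rosi replicate 4, 518 were more positive. Against B6, 218 of 12988 were more positive in F1 (1.68%) and 155 more negative (1.19%), 2.87% in all, where B6 alone had 933 higher and 530 lower genes. The counts against B6 rested on single libraries. More positive genes numbered 76, 106 and 99 without B6 control replicates 1, 3 and 4, 97, 98 and 140 without B6 rosi replicates 1, 3 and 4, 108 and 94 without F1 control replicates 3 and 4, and 89, 104 and 117 without F1 rosi replicates 1, 3 and 5. More negative genes numbered 82 and 91 without B6 control replicates 1 and 4, 102 without B6 rosi replicate 1, 102 and 95 without F1 control replicates 3 and 4, 99 without F1 rosi replicate 1 and 279 without F1 control replicate 1.

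Respiratory and oxidative genes often had a more positive effect in F1 than in 129. Of 36 complex I genes, 33 had a more positive effect in F1 than in 129 (median log2 fold change 1.14 against 0.17), against 6.08% of all genes, and 2 than in B6 (1.18 against 0.70), against 1.68%. For fatty acid oxidation the numbers were 21 and 6 of 24, for complexes II to V 31 and 1 of 41, and for mitochondrial ribosomal proteins 34 and 2 of 76. In the thermogenic list 18 of 31 genes were more positive in F1 than in 129 and 7 of 31 than in B6, and 0 were more negative in either.

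Ucp1 itself showed how the levels differ. In 129 it went from 55.1 ± 70.4 CPM in HFD controls to 75.7 ± 35.6 CPM with rosi (log2 0.44 ± 0.79), and the difference from F1 was 5.01 ± 1.11 (adjusted p = 0.00703). In B6 it went from 0.751 ± 0.547 to 18.2 ± 12.3 CPM, a log2 fold change of 4.62 ± 1.16 that did not differ detectably from that in F1 (difference 0.87 ± 1.79, adjusted p = 0.841), and the difference had a wide error. The treated level was far below that of F1. Gyk had a more positive effect in F1 than in 129 (2.77 ± 0.48, adjusted p = 0.00162) and than in B6 (2.24 ± 0.51, adjusted p = 0.0243), and the call against B6 was lost without B6 control replicate 1, B6 rosi replicate 1, F1 control replicate 3 or F1 control replicate 4, where the adjusted p reached 0.0617, and with the replicate block (2.07, adjusted p = 0.067). Cidea differed from 129 by 2.95 ± 0.45 (adjusted p = 0.000672) and from B6 by 1.49 ± 0.41 (adjusted p = 0.0578). The latter was not called, but it was with DESeq2 (adjusted p = 0.0115) and without B6 control replicate 2 or F1 control replicate 1, control replicate 2, rosi replicate 2 or rosi replicate 4, where the adjusted p ran from 0.0242 to 0.0484. For Plin5 the differences were 2.05 ± 0.35 (adjusted p = 0.00125) and 0.72 ± 0.44 (adjusted p = 0.381).

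Some of the lowest p-values of the interaction tests belonged to genes that fell with rosi in F1 more than in the parent strains. Tsc22d3 and Fkbp5, both known as genes that glucocorticoids induce, had log2 fold changes of -1.81 ± 0.12 and -2.64 ± 0.18 in F1. In 129 they were at -0.06 ± 0.12 and 0.03 ± 0.17, with differences of -1.75 ± 0.17 (adjusted p = 1.29e-05) and -2.67 ± 0.25 (adjusted p = 1.06e-05). In B6 they were at -0.43 ± 0.14 and -0.53 ± 0.20, with differences of -1.34 ± 0.19 (adjusted p = 0.00136) and -2.07 ± 0.30 (adjusted p = 0.00208). Efemp1, a matrix protein of the fibulin family, differed by -2.05 ± 0.24 from 129 and -1.72 ± 0.26 from B6. Pid1, an inhibitor of insulin signalling in fat cells, was at -1.40 ± 0.09 in F1 and 0.19 ± 0.08 in 129 (difference -1.59 ± 0.12, adjusted p = 9.7e-07), and Cmklr1 was at -3.56 ± 0.19 in F1 and -1.12 ± 0.18 in 129, with a difference of -2.44 ± 0.26.

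Other genes differed in effect between F1 and B6, in either direction. Acta2, smooth muscle actin, was not called in F1 (log2 0.30 ± 0.19 in this fit) and was at -1.60 ± 0.18 in B6, a difference of 1.90 ± 0.26 (adjusted p = 0.00125). For Mylk, the kinase of smooth muscle myosin, the values were 0.00 ± 0.08 and -0.99 ± 0.09. Of 15 pericyte and smooth muscle markers, 4 had a more positive effect in F1, against 1.68% of all genes, and 10 were lower in B6. With the replicate block, 84 of all genes in place of 218 had a more positive effect in F1. Thbd, thrombomodulin, fell in F1 (log2 -2.93 ± 0.24) and was at -0.04 ± 0.24 in B6 (difference -2.89 ± 0.34, adjusted p = 0.000205). Nnat fell in F1 (log2 -2.48 ± 0.25) and was at -0.10 ± 0.26 in B6 (difference -2.38 ± 0.35, adjusted p = 0.00219). Mbnl3, a splicing regulator, was at 2.91 ± 0.20 in B6 and 0.38 ± 0.21 in F1 (difference -2.53 ± 0.29, adjusted p = 0.000205).

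**Figure D5:**
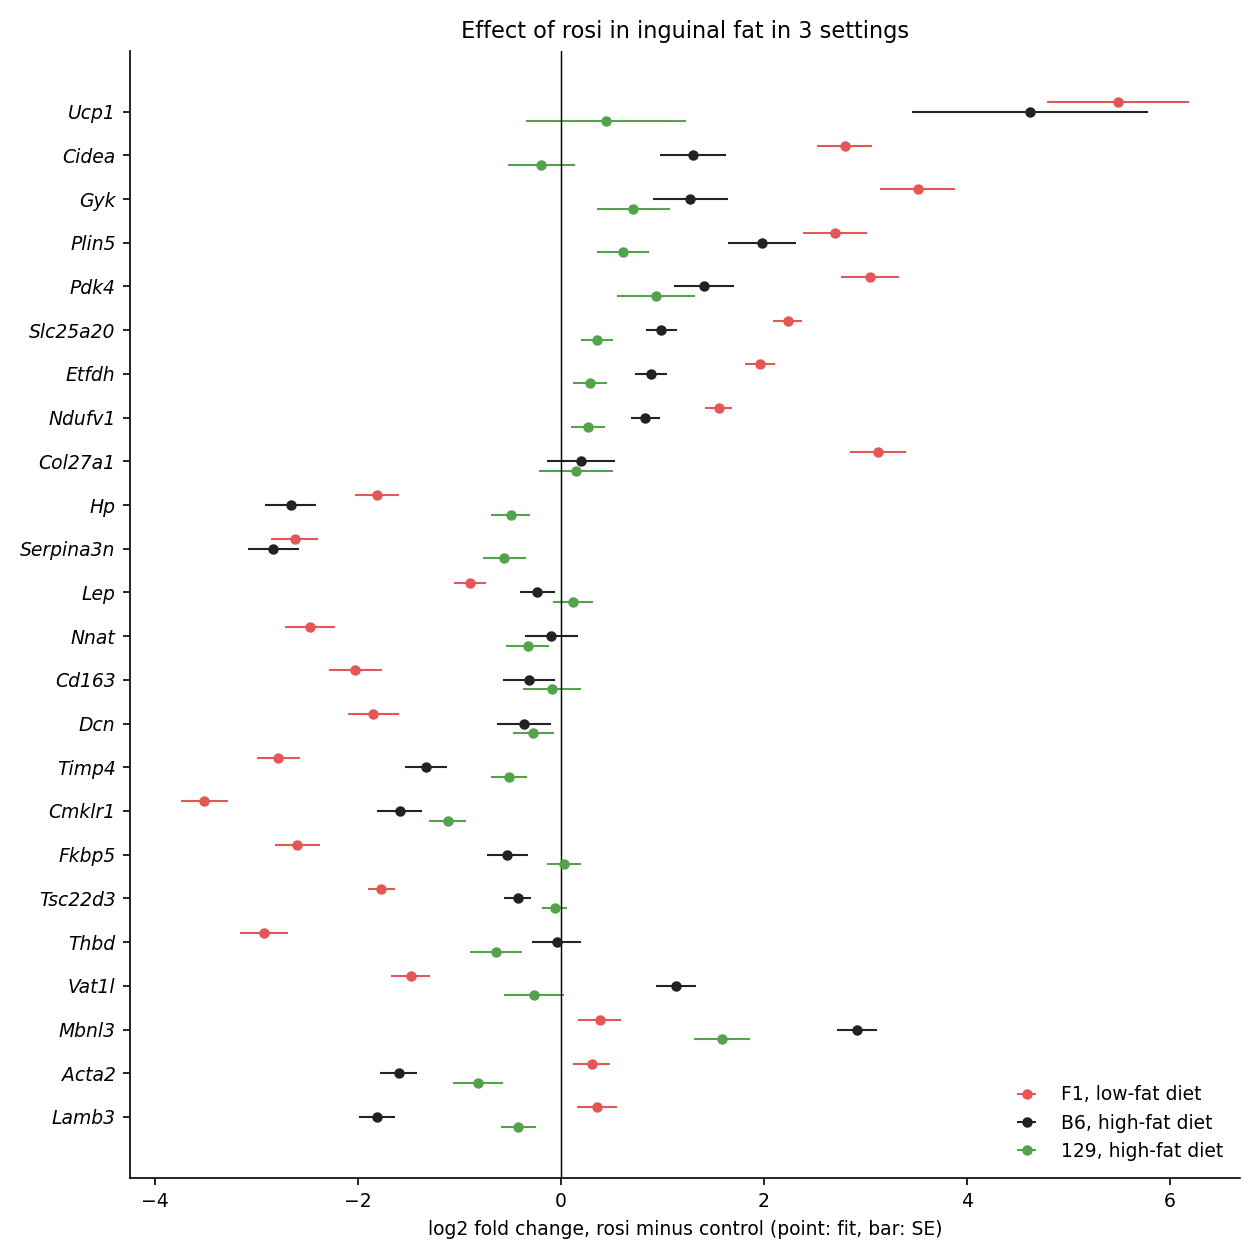
Log2 fold change of rosi minus control with its SE for 24 genes in F1 LFD, B6 HFD and 129 HFD iWAT. Ucp1, Cidea, Gyk, Plin5 and Slc25a20 lie higher in F1 than in 129, and Fkbp5 and Tsc22d3 lie lower in F1 than in either parent strain.

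PPAR and RXR bind a direct repeat known as DR1: AGGTCA, any 1 base, and AGGTCA again. The stretch from 250 bases before to 50 after each gene's start (RefSeq, GRCm38.p6, another build than the mm9 of the counts, so matched by symbol) was searched on both strands, allowing 1 mismatch in the 12 fixed bases. Of 9478 tested genes with such a stretch, 47 held the element (0.496%), against 11 of 1804 higher genes (0.610%), 8 of 1781 lower genes (0.449%) and 182 of all 32851 stretches (0.554%). The exact 95% binomial intervals were 0.305 to 1.09% for higher and 0.194 to 0.883% for lower genes, and overlapped. Most sites of PPAR gamma are known to lie in distal enhancers, which this search did not cover, so it says only that these letters were or were not found there.

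The called gene with an exact match was Isca1, which builds iron and sulfur clusters (log2 0.75 ± 0.14). Sept9, a septin of the cytoskeleton (log2 1.43 ± 0.17), and the chemokine Ccl6 (log2 -1.93 ± 0.35) held it with 1 mismatch, so that the element stood by genes that rose and by a gene that fell. They are printed to show the element, in capitals, in its place, with the gene's strand as read: Isca1 from chr13:59769740-59770039 (minus strand), Sept9 from chr11:117331465-117331764 (plus strand) and Ccl6 from chr11:83593038-83593337 (minus strand, where the element reads on the opposite strand).
Isca1: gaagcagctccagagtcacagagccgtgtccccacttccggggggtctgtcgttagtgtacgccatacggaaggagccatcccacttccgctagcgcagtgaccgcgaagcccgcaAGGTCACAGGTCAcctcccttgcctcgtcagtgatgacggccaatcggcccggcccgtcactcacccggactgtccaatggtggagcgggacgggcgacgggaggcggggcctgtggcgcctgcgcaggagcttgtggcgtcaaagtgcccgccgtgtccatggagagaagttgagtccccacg
Sept9: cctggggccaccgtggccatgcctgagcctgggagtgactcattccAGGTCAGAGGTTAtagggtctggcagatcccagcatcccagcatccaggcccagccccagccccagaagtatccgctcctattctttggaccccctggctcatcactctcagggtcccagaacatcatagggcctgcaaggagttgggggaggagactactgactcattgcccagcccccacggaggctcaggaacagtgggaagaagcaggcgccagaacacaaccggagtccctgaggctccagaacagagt
Ccl6: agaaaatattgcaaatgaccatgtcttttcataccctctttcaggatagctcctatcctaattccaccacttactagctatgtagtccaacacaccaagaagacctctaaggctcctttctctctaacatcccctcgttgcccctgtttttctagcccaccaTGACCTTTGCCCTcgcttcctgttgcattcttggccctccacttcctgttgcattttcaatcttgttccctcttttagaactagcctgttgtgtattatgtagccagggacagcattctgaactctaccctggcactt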

How the data were processed

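Total RNA was depleted of ribosomal RNA and sequenced, per the labels' protocols. Reads were aligned to mm9 with TopHat2 2.1.0 and counted with HTSeq, per the submitters' processing notes; strand setting and annotation were not given in the sources used here. The deposited values are raw counts of reads per gene, 24328 genes in each of 64 files, and the 5 tally rows were dropped. Antisense or overlapping genes and close copies may share reads.

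Groups came from the sample titles. Genes passing edgeR's filterByExpr (minimum count 10, total 15) were fitted with TMM scaling over the 10 F1 libraries by edgeR 4.0.16's quasi-likelihood test (R 4.3.3), with Benjamini-Hochberg adjustment over all tested genes; every adjusted p given without another tool's name is from it. Interactions used the F1 libraries with those of 1 parent strain. CPM are counts scaled to a library total of 1e+06. The fits were run on simulated data with the same dispersion for every gene and no outlying library. That check does not cover the uneven spread of these libraries. limma 3.58.1 and DESeq2 1.42.0 served as alternatives, with other scalings, filters, the replicate block and each library left out. Intervals and floors cover counting error only.

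Members and gene lists were chosen with earlier results of these data known. Named genes were 17 set genes, up to 4 per list and direction by p, the 12 largest folds each way without overlap at a mean of at least 10 CPM, the 5 most abundant called each way, and up to 8 each way by p in each interaction; the text describes a part of these. Zic1, Ndufs5, Cpt1a, Cpt1b, Isca1, Sept9 and Ccl6 were named after their values were seen. Some called genes of the lists are not reported here by name.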

Additional observations from a re-analysis of the deposited data

Results flagged for a closer look

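In 31 of 308 groups of 5 libraries, 1 library lay farther from the other 4 than Dixon's 95% limit of 0.71 of the group's range allows, where chance gives about 1 in 20. Of these, 20 were in control and 11 in rosi libraries, and control replicate 1 had 14. For that library the summed lymph node markers stood at 1488 CPM and the summed epithelial markers at 34.1 CPM, each the highest of the controls. Control replicate 1 lay above the other control libraries in Col27a1 at 15.6 CPM (8.91 to 10.6 in the other 4), Cr2 at 108 CPM (2.19 to 4.46 in the other 4) and Ptprc at 507 CPM (19.001 to 41.3 in the other 4). Control replicate 1 lay above the other control libraries in Cd52 at 43.7 CPM (2.54 to 3.52 in the other 4), Bank1 at 96.2 CPM (4.14 to 7.44 in the other 4) and Arntl at 8.33 CPM (1.46 to 1.88 in the other 4). Control replicate 1 lay below the other control libraries in Lpl at 4545 CPM (6995 to 7716 in the other 4), Bckdhb at 75.6 CPM (101 to 109 in the other 4) and Slc2a4 at 210.4 CPM (319 to 361 in the other 4). Control replicate 1 lay below the other control libraries in Foxo1 at 89.7 CPM (137 to 155 in the other 4), Rbp7 at 30.8 CPM (55.3 to 64.3 in the other 4) and Ripk4 at 18.9 CPM (32.6 to 35.9 in the other 4). Control replicate 2 lay above the other control libraries in Ppargc1a at 40.5 CPM (21.2 to 23.5 in the other 4), Clstn3 at 77.7 CPM (38.1 to 46.9 in the other 4) and Slc25a20 at 109.9 CPM (70.8 to 81.6 in the other 4). Control replicate 2 lay above the other control libraries in Bckdha at 300.1 CPM (194 to 225 in the other 4). Control replicate 4 lay below the other control libraries in Mrps2 at 13.8 CPM (16.7 to 17.3 in the other 4). Control replicate 5 lay above the other control libraries in Pltp at 171 CPM (148 to 153 in the other 4). Rosi replicate 1 lay above the other rosi libraries in Egfl7 at 133 CPM (91.7 to 94.9 in the other 4). Rosi replicate 1 lay below the other rosi libraries in Hp at 227 CPM (289.9 to 294 in the other 4). Rosi replicate 3 lay above the other rosi libraries in Postn at 527 CPM (177 to 248 in the other 4). Rosi replicate 4 lay above the other rosi libraries in Angptl4 at 736 CPM (485 to 541 in the other 4) and Ppm1k at 36.0 CPM (27.3 to 28.2 in the other 4). Rosi replicate 4 lay below the other rosi libraries in Tomm40 at 62.0 CPM (73.9 to 74.7 in the other 4). Rosi replicate 5 lay above the other rosi libraries in Bckdhb at 218 CPM (173 to 185 in the other 4), Prdx3 at 382 CPM (248 to 259.8 in the other 4) and Ifi27 at 899.7 CPM (708 to 745 in the other 4). Rosi replicate 5 lay above the other rosi libraries in Mmp3 at 6.96 CPM (2.78 to 3.42 in the other 4) and Rbp7 at 176 CPM (102 to 122 in the other 4).

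The effect of rosi differed between F1 on LFD and a parent strain on HFD, by an interaction term, for 37 of the differences given by name, in log2 units. Strain, diet and sequencing run differ together here and cannot be told apart. Against B6 the effect was more positive in F1 for Gyk (2.24), Mylk (0.99), Lamb3 (2.16), Acta2 (1.90), Fam132a (0.90), Col27a1 (2.93), Rnf146 (1.17), P2rx5 (2.24) and Tmem64 (0.996). It was more negative for Vat1l (-2.61), Mbnl3 (-2.53), Emp1 (-2.14), Thbd (-2.89), Tsc22d3 (-1.34), Fkbp5 (-2.07), Nnat (-2.38) and Efemp1 (-1.72). Against 129 it was more positive in F1 for Ucp1 (5.01), Cidea (2.95), Gyk (2.77), Plin5 (2.05), Slc25a20 (1.84), Slc16a1 (2.01), Akap1 (1.32), Tomm40 (1.13), Ackr4 (1.65), Akr1b10 (1.36), Etfdh (1.63) and Gtf2ird1 (1.97). It was more negative for Pid1 (-1.59), Fkbp5 (-2.67), Tsc22d3 (-1.75), C730002L08Rik (-4.15), Cmklr1 (-2.44), Timp4 (-2.32), Igfbp4 (-2.21) and Efemp1 (-2.05).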

How the results depend on the processing

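Over the 21 alternatives, the 2216 higher and 2266 lower genes stayed within 1.5 times: leaving out 1 library in turn gave 1935 to 2276 and 1729 to 2255, and no setting turned a called gene to the opposite call. Of 141 named genes called in F1, 134 kept their call in all 21; the others were Slc2a4, Slc29a1, Tomm34, Ptprc, Cd52, Cr2 and Bank1. The replicate block also ended the call of Gyk against B6 (2.07, adjusted p = 0.067). The near-zero Adipoq value became -0.0042 with upper quartile scaling, -0.082 without scaling factors, -0.12 with limma voom and quality weights and -0.0035 with the replicate block, and Plin1 became -0.021, -0.095 and -0.054 under the first 3 of these. Without single libraries Adipoq ranged from -0.070 to 0.118 and was below 0 without control replicate 1 (-0.065), rosi replicate 2 (-0.070) and rosi replicate 4 (-0.062), and Plin1 ranged from -0.088 to 0.097 and was below 0 without control replicates 1 (-0.088) and 3 (-0.035) and rosi replicate 2 (-0.021). Against B6, more negative genes numbered 239 with all iWAT libraries in the fit, DESeq2 gave 371 more positive and 346 more negative genes, and no filter gave 117 more positive. Leaving out single libraries gave 76 to 326 more positive and 82 to 279 more negative genes against B6, and 518 to 903 and 440 to 794 against 129. Exact matches to DR1 stood by 0.0528% of tested, 0.0554% of higher and 0% of lower genes (up to 0.207% by the exact interval), fewer because no mismatch was allowed. The cause of the other moves was not tested.

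Replicate numbers did not pair the libraries: same-numbered pairs had correlations of -0.112 to 0.155, and 1 of 5 correlated best with its own number. With the replicate block, 2091 genes were higher and 2036 lower in F1, 84 more positive and 93 more negative against B6, and 739 and 615 against 129. Totals of 3099737 to 4808947 counts a library left genes of few counts, such as most chemokines and 13 of 28 acute phase genes, untested.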
